A study of Mus musculus with 4 samples.

Results

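The collagen genes of mouse skin were described across WT and Egr1 KO animals, naive or given house dust mite (HDM). They were the gene symbols made of Col, a number, the letter a and a number, such as Col1a1, found once in the deposited tables. The rule found 44 collagen genes among 23203 unique symbols, and none of the 44 stood on more than 1 line. They were grouped by protein family into 8 fibrillar, 10 basement membrane, 7 cartilage and 19 other collagens. Genes with a mean log2 value above 5.11, which is the median over all genes, are termed measured. These were 28 collagen genes, 7 of them fibrillar, 7 of the basement membrane, 5 of cartilage and 9 others. The member just inside this limit was Col9a1 with a mean of 5.68, and the member just outside was Col4a6 with 5.04.

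Collagens are secreted proteins of 3 chains wound into a triple helix, with glycine recurring at a fixed spacing along each chain. Fibrillar collagens, chiefly types I and III in dermis with type V in the same fibrils, give skin its tensile strength and are made mainly by fibroblasts. Type IV forms the sheet of basement membranes, type VII the anchoring fibrils below the epidermis, and type XVII the transmembrane collagen of the hemidesmosome in basal keratinocytes. Types II, IX, X and XI belong to cartilage, which forms the plate of the ear. Type VI makes beaded microfilaments, type VIII a network known from vessel walls and cornea, and types XII, XIV and XVI decorate fibril surfaces. EGR1 is known as an activator of collagen transcription downstream of TGF-beta in human dermal fibroblasts.

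Skin came from adult C57BL/6 mice, with 1 library in each of 4 groups: Egr1 knockout with HDM, WT with HDM, Egr1 knockout naive and WT naive. Knockout animals are Egr1-/- by PCR genotyping, and the labels do not say which part of the gene is disrupted. The HDM groups received the detergent SDS and then 100 mg of HDM cream on shaved neck and ear skin, at 2 rounds a week over 3 weeks. For the naive groups only SDS is named as treatment. RNA was sequenced near the 3′ ends of transcripts, so a value is not divided by transcript length. With 1 library a group there is no replicate check, no p-value was computed, and each difference compares libraries and not conditions. A gene is called higher or lower when its log2 values differ by at least 1, which is 2-fold. Folds carry 95% exact intervals that cover counting error only.

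Depth was alike, with 9443865 to 10129020 reads recovered per library, but the libraries differed in other ways. Egr1 itself was not lower in the libraries labelled knockout, with log2 values of 11.68 in KO-labelled HDM, 10.31 in WT HDM, 11.53 in KO-labelled naive and 11.02 in WT naive skin. Its 3′ reads may lie outside the disrupted part, so this checks no label, and the libraries are called KO-labelled. The Y-linked gene Ddx3y had 1 read in each HDM library, against 2430 and 1925 in the KO-labelled and WT naive libraries. HDM and naive libraries therefore differ in sex-linked transcripts too, and treatment and sex cannot be told apart. In KO-labelled naive, 336 genes had no read although all the other libraries held at least 50, against 0 to 5 such genes elsewhere. Keratinocyte markers took 1.85% of reads in KO-labelled HDM, 2.30% in WT HDM, 0.649% in KO-labelled naive and 0.806% in WT naive. All 10 had reads in every library, as had all 10 fibroblast markers. The 8 salivary gland markers took 0.00158%, 0.00726%, 0.822% and 7.11% of reads in the same order of libraries, and the 10 hair follicle markers 0.365%, 0.173%, 0.00523% and 0.00407%.

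Promoter windows from RefSeq (build GRCm38.p6, 250 bases before to 50 after a gene's start) were matched by symbol for 35 of the 44 genes. Those not matched were Col1a1, Col2a1, Col4a3, Col5a2, Col9a3, Col12a1, Col14a1, Col22a1 and Col26a1. The letters GCGNGGGCG, the known EGR1 motif, were found on either strand in 3 of the 35 genes (8.57%), Col4a1, Col4a2 and Col8a1, and in 5.55% of all 32851 windows. The SP1 motif GGGCGG, which can overlap it, was in 22 of the 35 (62.9%) against 35.7% of all windows. CCAAT was in 13 genes (37.1%, against 37.4%) and TATAAA in 5 (14.3%, against 13.6%). These collagen shares count genes with a match in any of their windows, while the shares of all count windows. Of the 38 collagen windows, 3 held the EGR1 letters, 23 the SP1 motif, 13 CCAAT and 5 TATAAA. A match is a run of letters and not a binding site. The stretches before the start are shown for Col8a1, which holds the EGR1 letters and was lower in KO-labelled than in WT skin under HDM. That of Col3a1 follows as the measured fibrillar gene with the largest difference between genotypes in naive skin, and that of Col27a1 as the one with the largest difference with HDM. Col4a1 and Col4a2, which also hold the EGR1 letters, had KO-labelled minus WT log2 differences of 0.33 and 0.28 under HDM. Of the other genes lower in that comparison, Col8a2, Col9a1, Col9a2, Col10a1 and Col27a1 have windows without the letters. A link between the letters and the values was not tested. The start is that of RefSeq. GENCODE M21 also lists a Col27a1 transcript beginning at 63214004, so the Col27a1 stretch lies inside the gene as annotated there, outside its exons. All run 5′ to 3′ on the gene's strand, and capitals mark the 4 motifs.
Col8a1, chr16:57754738-57754987, minus strand: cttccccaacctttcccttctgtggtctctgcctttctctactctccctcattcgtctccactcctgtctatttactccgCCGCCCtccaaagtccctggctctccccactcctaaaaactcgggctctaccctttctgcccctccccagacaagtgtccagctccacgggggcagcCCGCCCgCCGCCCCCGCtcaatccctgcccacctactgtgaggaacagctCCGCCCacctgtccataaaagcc
Col3a1, chr1:45311288-45311537, plus strand: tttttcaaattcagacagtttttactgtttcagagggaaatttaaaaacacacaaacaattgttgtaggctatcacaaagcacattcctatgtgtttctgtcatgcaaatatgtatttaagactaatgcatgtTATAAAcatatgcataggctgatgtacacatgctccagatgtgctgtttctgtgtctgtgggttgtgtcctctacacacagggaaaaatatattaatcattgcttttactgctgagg
Col27a1, chr4:63215162-63215411, plus strand: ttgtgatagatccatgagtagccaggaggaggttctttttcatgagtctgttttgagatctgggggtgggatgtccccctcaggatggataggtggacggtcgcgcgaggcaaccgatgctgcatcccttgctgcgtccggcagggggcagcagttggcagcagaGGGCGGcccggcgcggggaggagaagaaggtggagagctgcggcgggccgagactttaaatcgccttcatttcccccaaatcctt

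Col4a1 and Col4a2 lie head to head on chromosome 8 and their windows overlap, so both hold the same EGR1 letters, shown here once per strand with the match in capitals.
Col4a1, chr8:11312799-11312825, minus strand: tggagacgcCGCCCGCGCactgccgag
Col4a2, chr8:11312799-11312825, plus strand: ctcggcagtGCGCGGGCGgcgtctcca

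The collagen genes took a far smaller share of all reads in the HDM libraries than in the naive ones. Together they held 59686 reads in KO-labelled HDM, 61881 in WT HDM, 384773 in KO-labelled naive and 182984 in WT naive skin. As shares of all reads these were 0.589% (0.585 to 0.594), 0.655% (0.650 to 0.660), 3.87% (3.86 to 3.88) and 1.90% (1.90 to 1.91), in the same order. A share of reads also depends on the other tissue in a sample, and the shares of keratinocyte, hair follicle and salivary gland markers given above differed too. Adipocyte markers took 0.204%, 0.0918%, 0.656% and 0.195% of reads in the same order, and Schwann cell markers 0.0291%, 0.0345%, 0.164% and 0.162%. Fewer cells that make collagen, less collagen RNA per cell and differences in other tissue cannot be told apart in whole skin. The fibrillar genes carried most of the difference in collagen share. Their shares were 0.403% in KO-labelled HDM and 0.469% in WT HDM, against 3.50% in KO-labelled naive and 1.61% in WT naive skin. The basement membrane collagens instead held 0.0773% and 0.0535% with HDM, against 0.0852% and 0.0735% in naive skin. They thus made up 13.1% of collagen reads in KO-labelled HDM and 8.17% in WT HDM, against 2.20% and 3.86% in the naive libraries of KO-labelled and WT skin. The 10 fibroblast markers took 0.238% of reads in KO-labelled HDM, 0.329% in WT HDM, 0.831% in KO-labelled naive and 0.477% in WT naive. Most of these reads were of 1 gene, Dcn, with 13689 of 24112, 21315 of 31108, 59822 of 82676 and 32731 of 45874 in that order. The part of these markers in the collagen shares was not tested.

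**Figure D1:**
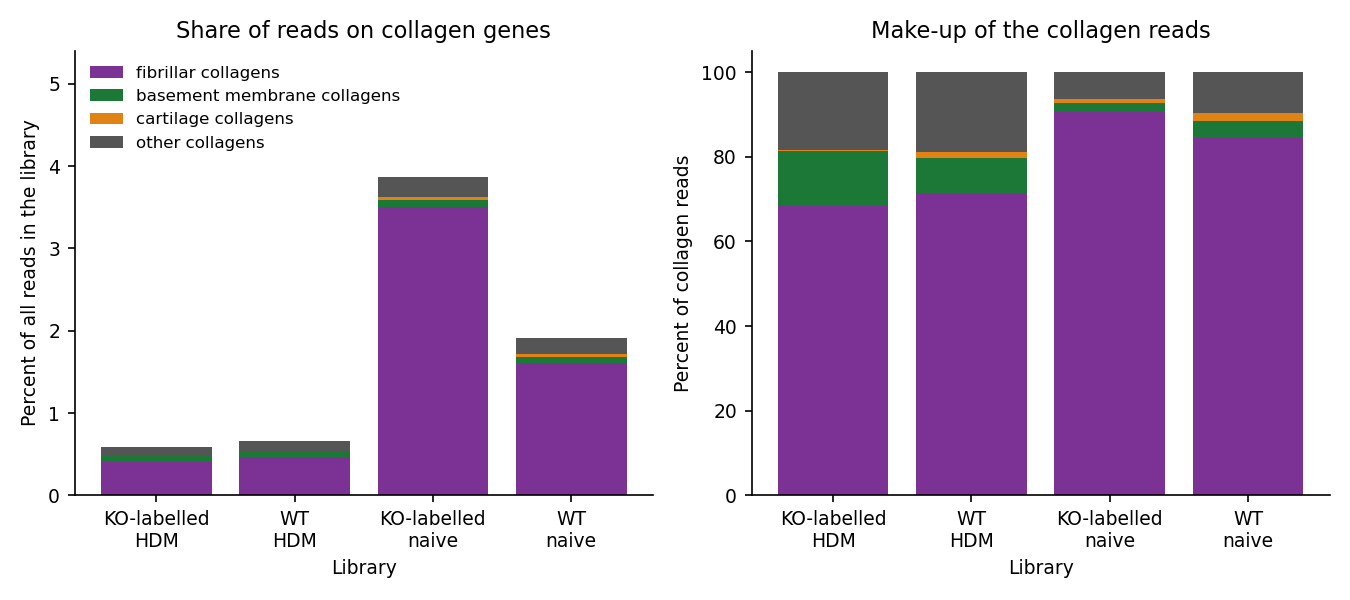
The left panel stacks the percent of all reads on the 4 collagen groups in each library, and the right panel gives each group as a percent of the collagen reads. The total is 0.589% and 0.655% in the HDM libraries of KO-labelled and WT skin, against 3.87% and 1.90% in the naive ones, and the green basement membrane part of the right panel is largest in KO-labelled HDM.

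Of the 28 measured collagen genes, 14 were lower and 5 higher with HDM in WT skin, where 12.7% of all 11600 measured genes were lower and 14.5% higher (27.2% in either direction). In KO-labelled skin 18 were lower and 2 higher, where 18.2% of all genes were lower and 21.7% higher (39.9% in either direction). Median log2 differences were -1.79 in KO-labelled and -1.10 in WT skin, while the medians of all genes were 0.06 and 0.03. Among all 44 with no filter, 20 were lower and 8 higher in WT skin, and 26 were lower and 6 higher in KO-labelled skin. Both HDM libraries lay below both naive ones for 19 of the 28, an order that 26.8% of all measured genes showed. The reverse order held for 3 of 28, Col18a1, Col4a2 and Col12a1, and for 30.2% of all measured genes. A gene that passed the filter mainly through its naive values had to differ in this way.

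Between genotypes fewer collagen genes passed 2-fold. In naive skin 6 of the 28 were higher and 2 lower in the KO-labelled library (13.6% of all genes were higher and 17.1% lower, 30.7% in either direction). Under HDM none was higher and 8 were lower (3.06% and 4.66% of all genes, 7.72% in either direction), and 4 of those 8 were cartilage collagens. Median log2 differences between KO-labelled and WT skin were 0.33 in naive and -0.42 in HDM skin, against -0.03 and -0.01 over all genes. No measured collagen gene had both KO-labelled libraries below both WT libraries, an order seen in 9.28% of all genes. Col4a1 alone had both above (9.87% of all genes), by no more than 1.26-fold.

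**Figure D2:**
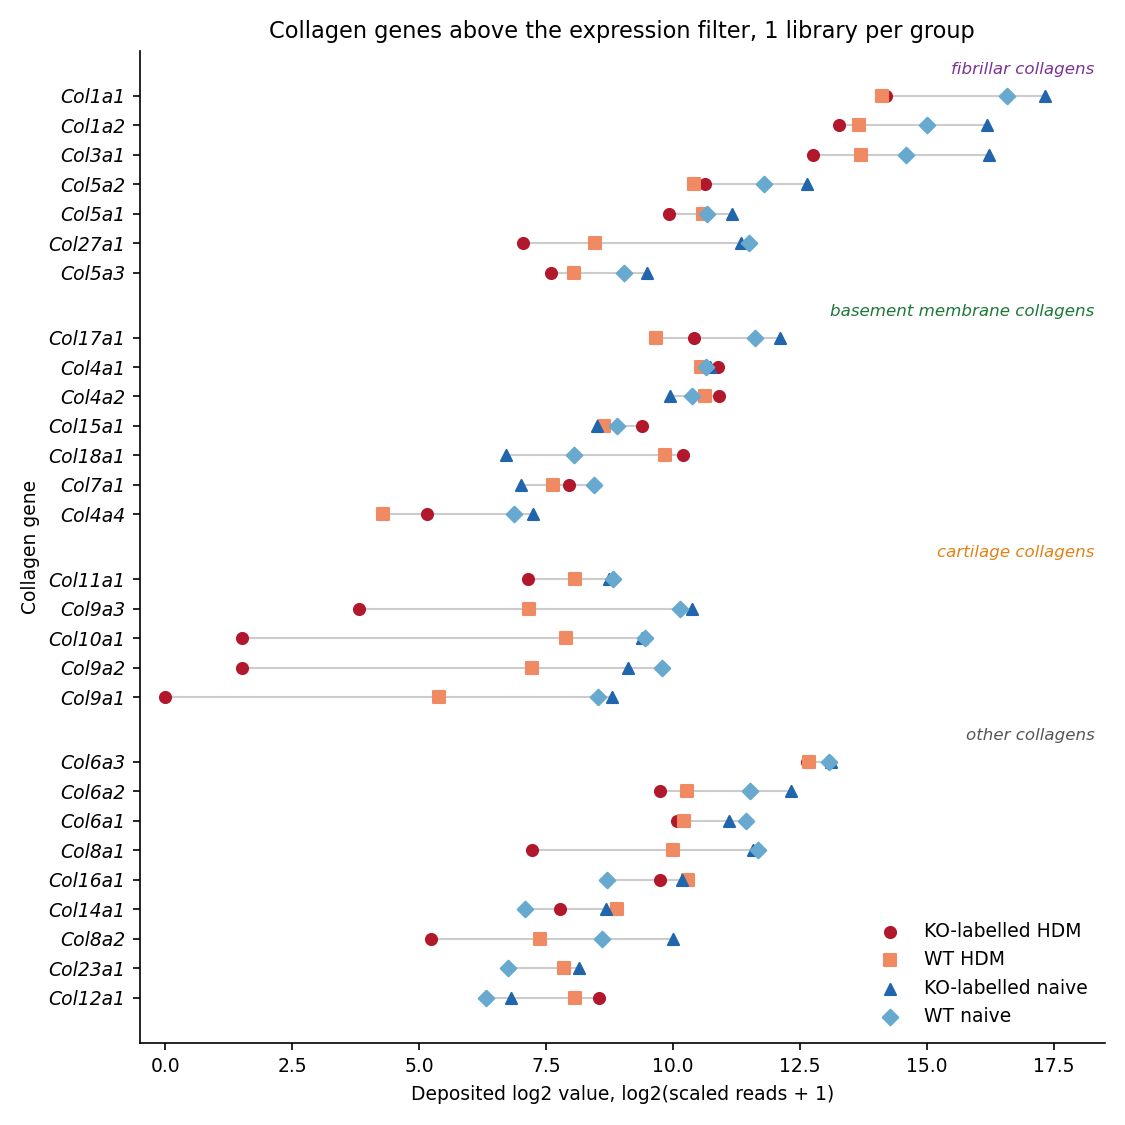
Each row is 1 of the 28 measured collagen genes, with its deposited log2 value in the 4 libraries on the x axis (1 point per library, no error). All 7 fibrillar genes have both HDM points left of both naive points, Col18a1 and Col12a1 have them to the right, and Col9a1 is at 0 in KO-labelled HDM; points of near-equal value hide each other, as for Col6a3.

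The type I and type III genes, which encode the bulk of dermal fibrils, were among the genes with most reads in naive skin. With HDM all 3 were lower in KO-labelled skin, and Col1a1 and Col1a2 in WT skin. Col1a1 encodes the alpha 1 chain of type I collagen (chromosome 11, 94936224 to 94953042, plus strand, as annotated in GENCODE M21). It had log2 values of 14.19 in KO-labelled HDM, 14.12 in WT HDM, 17.32 in KO-labelled naive and 16.57 in WT naive skin. By reads it ranked 30 and 35 among all genes in the HDM libraries of KO-labelled and WT skin, against 1 and 5 in the naive ones. It was lower with HDM by 8.75-fold in KO-labelled skin (8.62 to 8.88) and by 5.46-fold in WT skin (5.37 to 5.56). The HDM libraries of KO-labelled and WT skin differed by 1.04-fold (1.02 to 1.07), so the wider gap in KO-labelled skin lay in the naive libraries, which differed by 1.67-fold (1.66 to 1.69).

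Col1a2 encodes the alpha 2 chain of the same trimer. Its log2 values were 13.27 in KO-labelled HDM and 13.67 in WT HDM, against 16.18 in KO-labelled naive and 14.99 in WT naive. The HDM level was 7.52-fold lower in KO-labelled skin (7.37 to 7.67) and 2.50-fold lower in WT skin (2.45 to 2.56). The KO-labelled naive level was 2.28-fold above that of WT naive (2.25 to 2.31). Col3a1, whose type III homotrimer shares fibrils with type I, stood at 12.75 in KO-labelled HDM, 13.70 in WT HDM, 16.22 in KO-labelled naive and 14.58 in WT naive. With HDM it was 11.1-fold lower in KO-labelled skin (10.9 to 11.4) and 1.84-fold lower in WT skin (1.80 to 1.88), which did not pass 2-fold. In naive skin the KO-labelled library was 3.13-fold above WT (3.09 to 3.18), and under HDM it was 1.94-fold below WT (1.88 to 1.99). All 10 fibroblast markers also had higher log2 values in KO-labelled naive than in WT naive skin (median 0.70, 3 past 2-fold). So had all 7 measured adipocyte markers (median 1.32) and all 8 muscle markers (0.75), while keratinocyte markers had a median of -0.47. Over all genes that median was -0.03, with 13.6% higher. The part of these markers in the naive collagen values was not tested.

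Type V collagen, which nucleates type I fibrils and sets their diameter, had 3 measured genes, all lower with HDM in KO-labelled skin, and Col5a2 in WT skin too. Col5a1 had log2 values of 9.91 in KO-labelled HDM, 10.59 in WT HDM, 11.16 in KO-labelled naive and 10.66 in WT naive. The HDM library was 2.37-fold lower than naive in KO-labelled skin (2.20 to 2.55), and 1.05-fold lower in WT skin, where the interval included 1 (0.980 to 1.13). For Col5a2 the values were 10.62, 10.41, 12.63 and 11.79 in the same order of libraries, or 4.05-fold (3.84 to 4.28) and 2.60-fold (2.44 to 2.77) lower with HDM in KO-labelled and WT skin. Col5a3, a further type V chain, stood at 7.60, 8.05, 9.49 and 9.04. It was 3.72-fold lower with HDM in KO-labelled skin (3.19 to 4.36) and 1.99-fold in WT skin (1.71 to 2.33), and in WT skin it lies at the edge of the 2-fold rule.

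Col27a1 had the largest difference with HDM of the measured fibrillar genes in both genotypes. It encodes a fibrillar collagen best known from cartilage. Log2 values were 7.05 in KO-labelled HDM and 8.47 in WT HDM, against 11.33 in KO-labelled naive and 11.50 in WT naive skin, from 140, 328, 2757 and 2734 reads. That is 19.6-fold lower with HDM in KO-labelled skin (16.6 to 23.4) and 8.17-fold lower in WT skin (7.28 to 9.18). Under HDM the KO-labelled library was 2.69-fold below WT (2.20 to 3.30). In all, 7 of 7 measured fibrillar genes were lower with HDM in KO-labelled skin and 4 of 7 in WT skin, with median log2 differences of -2.91 and -1.32. Of all measured genes 18.2% and 12.7% were lower in these 2 comparisons. The eighth fibrillar gene, Col24a1, lay below the filter with 30, 10, 0 and 7 reads.

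**Figure D3:**
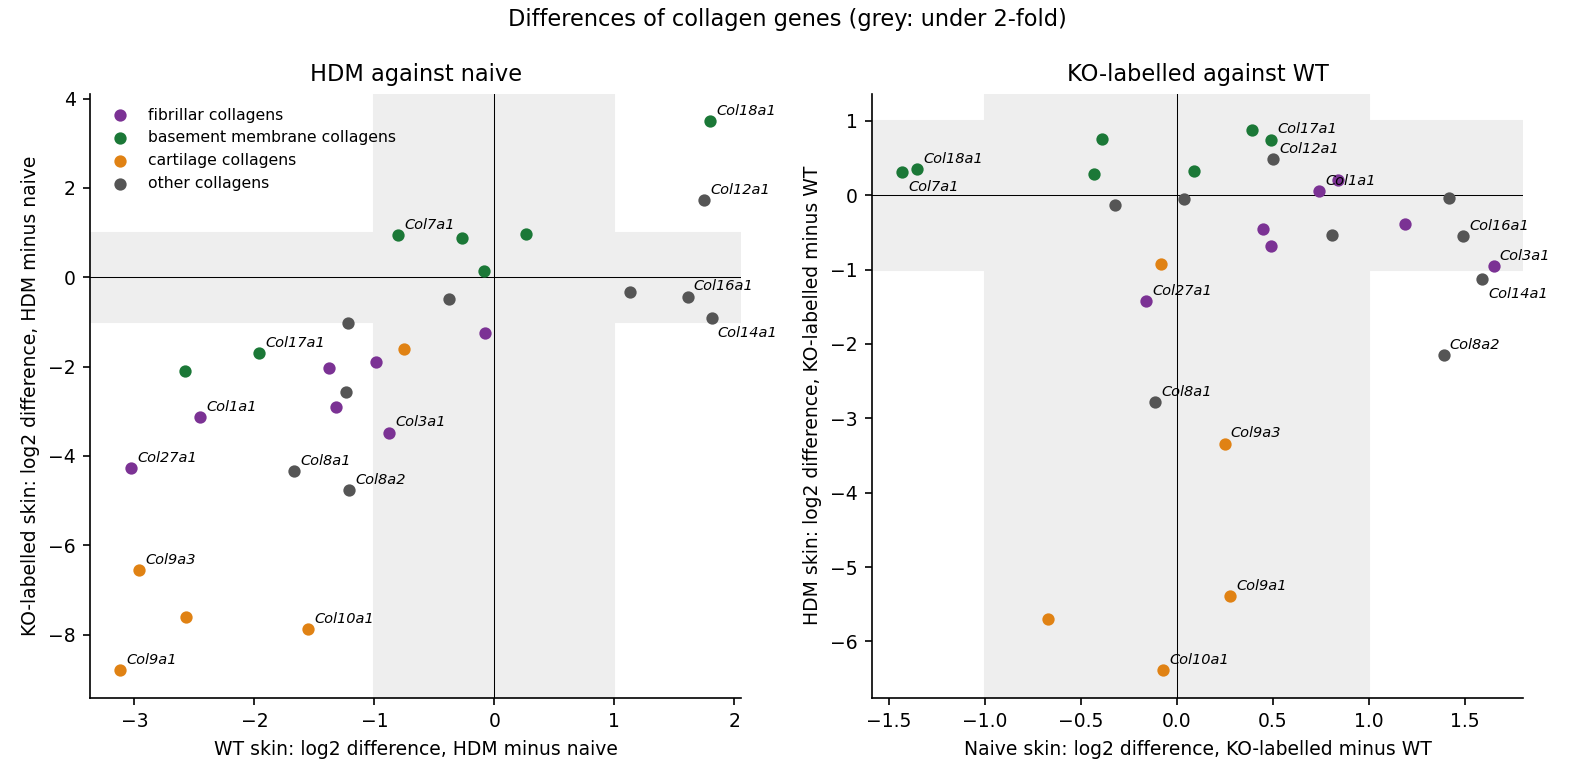
The left panel sets the log2 difference of HDM minus naive in KO-labelled skin (y axis) against WT skin (x axis), and the right panel the difference of KO-labelled minus WT under HDM (y) against naive skin (x), 1 point per measured collagen gene. Grey bands mark differences under 2-fold; fibrillar genes sit in the lower left of the left panel, Col18a1 and Col12a1 in its upper right, and the low points of the right panel are cartilage collagens, Col8a1 and Col8a2.

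Of the 7 measured basement membrane collagens, Col18a1 was the one past 2-fold higher with HDM, in both genotypes. Col18a1 encodes type XVIII collagen, a proteoglycan of vascular and epithelial basement membranes whose C-terminal fragment is endostatin (chromosome 10, 77052178 to 77166548, minus strand). Its log2 values were 10.20 in KO-labelled HDM and 9.85 in WT HDM, against 6.70 in KO-labelled naive and 8.04 in WT naive skin. It was 11.4-fold higher with HDM in KO-labelled skin (from 9.39 up to 14) and 3.50-fold in WT skin (3.03 to 4.04). As with Col1a1, the genotypes were closer under HDM, 1.28-fold apart (1.17 to 1.40), than in naive skin, where the KO-labelled library was 2.55-fold lower (2.03 to 3.23). The 8 endothelial markers took 0.0177%, 0.0190%, 0.0197% and 0.0130% of reads in the same order of libraries. Their members differed in both directions, with 2 higher and 1 lower with HDM in each genotype. The KO-labelled comparison called 21.7% of all measured genes higher and 18.2% lower, and the WT comparison 14.5% and 12.7%. Pecam1 had 390 reads in KO-labelled HDM and 469 in WT HDM, against 78 in KO-labelled naive and 168 in WT naive, and Cldn5 had 79, 60, 257 and 174. The part of endothelial content in the Col18a1 values was not tested. The related Col15a1 had 9.39, 8.63, 8.51 and 8.90 in the order KO-labelled HDM, WT HDM, KO-labelled naive and WT naive, and no difference passed 2-fold.

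The type IV chains of all basement membranes, Col4a1 and Col4a2, stayed within 2-fold in every comparison. Col4a1 had log2 values of 10.88 in KO-labelled HDM, 10.55 in WT HDM, 10.73 in KO-labelled naive and 10.64 in WT naive, a range of 0.33. Its head-to-head partner Col4a2 had 10.90, 10.63, 9.94 and 10.37 in the same order. With HDM, Col4a2 was 1.95-fold higher in KO-labelled skin (1.81 to 2.10) and 1.19-fold in WT skin (1.11 to 1.29). The rarer chain Col4a4, paired with Col4a3 in specialised membranes, was lower with HDM by 4.34-fold in KO-labelled skin (3.02 to 6.38) and 6.28-fold in WT skin (3.75 to 11.2), from 37, 17, 161 and 109 reads.

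Of the 2 collagens that anchor basal keratinocytes, Col17a1 alone passed 2-fold with HDM. Col17a1 (hemidesmosome) had 10.42 in KO-labelled HDM and 9.66 in WT HDM, against 12.11 in KO-labelled naive and 11.62 in WT naive. It was lower with HDM by 3.23-fold in KO-labelled skin (3.05 to 3.43) and 3.88-fold in WT skin (3.58 to 4.21). The 10 keratinocyte markers had medians of 1.25 and 1.56 with HDM in KO-labelled and WT skin, with 6 and 7 of them higher (21.7% and 14.5% of all genes). Among them the basal keratin gene Krt14 had 43925 reads in KO-labelled HDM and 36830 in WT HDM, against 6384 in KO-labelled naive and 12138 in WT naive. Krt15, another basal keratin gene, had the direction of Col17a1, lower with HDM by 3.47-fold in KO-labelled skin (3.33 to 3.62) and 7.86-fold in WT skin (7.40 to 8.35). Col7a1 (anchoring fibrils) stood at 7.94, 7.63, 7.0 and 8.44 in the order KO-labelled HDM, WT HDM, KO-labelled naive and WT naive. Its difference with HDM was 0.94 in KO-labelled and -0.80 in WT skin, neither past 2-fold, and in naive skin the KO-labelled library was 2.71-fold below WT (2.21 to 3.34). Over the 7 measured basement membrane genes the medians with HDM were 0.88 in KO-labelled and -0.27 in WT skin, with 1 higher and 2 lower in each. Under HDM all 7 had higher log2 values in the KO-labelled than in the WT library, by 0.28 to 0.88, none past 2-fold. The same direction was seen in 5722 of all 11600 measured genes.

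The cartilage collagens were at or near 0 in the KO-labelled HDM library, Col11a1 apart, and 4 of the 5 measured ones were lower with HDM in WT skin (12.7% of all genes). Type IX chains coat type II fibrils. Col9a1 had 0 reads in KO-labelled HDM and 38 in WT HDM, against 475 in KO-labelled naive and 346 in WT naive skin. It was at least 158-fold lower with HDM in KO-labelled skin, taking 0 as up to 3 reads, and 8.92-fold lower in WT skin (6.37 to 12.8). For Col9a2 the reads were 2, 137, 594 and 836 in the same order, and for Col9a3 14, 132, 1421 and 1059. Col9a3 was 101-fold lower with HDM in KO-labelled skin (60.1 to 186) and 7.86-fold in WT skin (6.55 to 9.49). Col10a1, the collagen of hypertrophic cartilage, had 2 reads in KO-labelled HDM, 221 in WT HDM, 713 in KO-labelled naive and 662 in WT naive.

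Col11a1, which shares the core of type II fibrils, had the smallest difference of the measured cartilage collagens. Its log2 values were 7.14 in KO-labelled HDM and 8.07 in WT HDM, against 8.74 in KO-labelled naive and 8.82 in WT naive, or 3.05-fold (2.53 to 3.70) and 1.69-fold (1.44 to 1.98) lower with HDM. Col2a1, the main fibril collagen of hyaline cartilage, lay below the filter. It had 0 reads in KO-labelled HDM, 143 in WT HDM, 16 in KO-labelled naive and 188 in WT naive. The KO-labelled naive level was 13.3-fold below WT naive (7.95 to 23.7), while Col9a1 was 1.22-fold higher there (1.06 to 1.40). Col11a2 had 0, 13, 8 and 51 reads in the same order of libraries.

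Most measured cartilage markers were lower with HDM as well. The 8 measured cartilage markers had medians of -4.33 with HDM in KO-labelled skin and -1.48 in WT skin, with 7 and 6 of 8 lower (18.2% and 12.7% of all genes). The aggrecan gene Acan had 31 reads in KO-labelled HDM, 742 in WT HDM, 1916 in KO-labelled naive and 2065 in WT naive skin. Cytl1, a cartilage cytokine gene, had 26, 11606, 17119 and 17250. All 13 listed markers in the tables summed to 0.0581% of reads in KO-labelled HDM, 0.206% in WT HDM, 0.279% in KO-labelled naive and 0.338% in WT naive. Of the 5881 reads in KO-labelled HDM, 5516 were of Sox9, which hair follicles express too, and Matn1, Matn3 and Ucma were at 0. How much ear cartilage each sample held is not given in the labels, so the content of cartilage and the treatment cannot be told apart for these genes. Col27a1 and Col11a1 were lowest in the same library as Acan. That library was also the lowest for many collagens outside the cartilage group, such as Col1a2, Col3a1, Col5a1 and Col6a3.

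The remaining collagens split by type. The fibril-surface collagens were higher with HDM in WT skin. Col12a1, a collagen of fibril surfaces in tendon, dermis and healing wounds, had log2 values of 8.54 in KO-labelled HDM and 8.06 in WT HDM, against 6.81 in KO-labelled naive and 6.31 in WT naive skin. It was 3.34-fold higher with HDM in KO-labelled skin (2.71 to 4.13) and 3.39-fold in WT skin (2.61 to 4.46). The first interval lies inside the second.

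Col14a1 and Col16a1, also of fibril surfaces, and Col23a1, a transmembrane collagen, shared their lowest library, WT naive. Log2 values of Col14a1 were 7.77 in KO-labelled HDM, 8.90 in WT HDM, 8.68 in KO-labelled naive and 7.09 in WT naive. With HDM it was 3.53-fold higher in WT skin (2.89 to 4.33) and 1.89-fold lower in KO-labelled skin (1.61 to 2.23), which is short of 2-fold. Col16a1 had 9.75, 10.30, 10.18 and 8.69 in the same order, with a WT difference of 3.06-fold (2.73 to 3.44) and a KO-labelled one of 1.35-fold in the other direction (1.23 to 1.47). Col23a1 had 7.83, 7.86, 8.15 and 6.74. In naive skin the KO-labelled library was above WT for these 3 genes by 3.03-fold (2.49 to 3.72), 2.81-fold (2.51 to 3.16) and 2.69-fold (2.14 to 3.40). The difference between genotypes in the response to HDM was not tested, as 1 library a group leaves no error for it.

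Of the measured type VI and type VIII genes, all but Col6a3 were lower with HDM in both genotypes. Col6a3 encodes the long chain of the microfilament. It was the steadiest member of the type VI trio, with 12.63 in KO-labelled HDM, 12.68 in WT HDM, 13.11 in KO-labelled naive and 13.07 in WT naive. Col6a1 stood at 10.08, 10.22, 11.11 and 11.43 in that order and was lower with HDM by 2.04-fold in KO-labelled skin (1.90 to 2.19) and 2.32-fold in WT skin (2.17 to 2.50). Col6a2, which lies 85161 bases from Col6a1 on the same strand of chromosome 10, had 9.75, 10.28, 12.33 and 11.52, or 5.96-fold (5.56 to 6.40) and 2.36-fold (2.20 to 2.53) lower.

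Col8a1 encodes the alpha 1 chain of type VIII collagen; its promoter is printed above. Its log2 values were 7.22 in KO-labelled HDM, 10.00 in WT HDM, 11.57 in KO-labelled naive and 11.67 in WT naive, from 158, 951, 3238 and 3093 reads. Naive levels were close, 1.08-fold lower in the KO-labelled library (1.03 to 1.13), but under HDM that library was 6.91-fold below WT (5.83 to 8.23). Its partner Col8a2 had 5.23, 7.38, 9.99 and 8.60 in the same order. Under HDM it was 4.53-fold lower in KO-labelled than in WT skin (3.17 to 6.62), and in naive skin 2.63-fold higher (2.33 to 2.97). With HDM the pair was 20.4-fold (17.4 to 24.1) and 27.7-fold (20.2 to 39.2) lower in KO-labelled skin, against 3.19-fold (2.96 to 3.43) and 2.33-fold (1.92 to 2.83) in WT skin. Summed cartilage markers were lowest in the same library, though of the measured ones Sox9 was lowest in KO-labelled naive and Sox6 in WT HDM. The part of these markers in the type VIII values was not tested.

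The other members lay below the filter and rest on few reads. Col6a6, a type VI chain of skin, had 5 reads in KO-labelled HDM and 1 in WT HDM, against 170 in KO-labelled naive and 14 in WT naive. Col22a1, known from tissue junctions such as that of muscle and tendon, had 2, 20, 121 and 57 in the same order. Col25a1 had 6, 16, 76 and 18, and Col20a1 had 1, 1, 34 and 14. Col6a5, another type VI chain, had 50, 14, 9 and 27. Col19a1 was found only in WT naive, with 18 reads, and Col26a1 only in KO-labelled HDM, with 11. Col6a4 and Col28a1 had 5 and 4 reads in WT HDM and 0 in the other libraries, where 0 reads allow a share of up to 2.96e-05% to 3.12e-05%. The type IV gene Col4a3 had 19, 9, 53 and 17 reads, and the X-linked neighbours Col4a5 and Col4a6 had 20, 10, 0 and 17, and 23, 6, 47 and 146 reads. The 0 of Col4a5 and of Col24a1 stood in KO-labelled naive, the library with 336 genes at 0 that all others held.

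Chains that share a trimer did not keep a fixed ratio of reads. The ratio was compared only with the same ratio in another library, since reads near 3′ ends need not count different genes alike. Type I is assembled from both its chains, and Col1a2 had 0.530 reads per Col1a1 read in KO-labelled HDM (0.518 to 0.543) and 0.728 in WT HDM (0.711 to 0.745). It had 0.455 in KO-labelled naive (0.452 to 0.459) and 0.334 in WT naive (0.329 to 0.338), and no pair of these intervals overlaps. Col3a1 and Col1a1 share fibrils and not a trimer, so their ratio is a separate description. Col3a1 per Col1a1 was 0.368, 0.745, 0.469 and 0.250 in the same order, a span of 2.98-fold with its extremes in WT HDM and WT naive. Col3a1 per Col1a1 was thus higher with HDM than naive in WT skin and lower in KO-labelled skin.

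Col4a2 per Col4a1 was 1.01 in KO-labelled HDM (0.954 to 1.08) and 1.05 in WT HDM (0.979 to 1.13), against 0.577 in KO-labelled naive (0.535 to 0.623) and 0.828 in WT naive (0.768 to 0.893). The HDM intervals overlap each other and neither naive interval. Col6a2 per Col6a1 was 2.33 in KO-labelled naive (2.22 to 2.44), against 0.795 to 1.06 in the other libraries. Col5a2 per Col5a1 was 1.63, 0.884, 2.78 and 2.18 in the order KO-labelled HDM, WT HDM, KO-labelled naive and WT naive. Col8a2 per Col8a1 was 0.247, 0.162, 0.335 and 0.118, higher in the KO-labelled library under each treatment, though the HDM intervals (0.169 to 0.352 and 0.136 to 0.192) overlap.

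**Figure D4:**
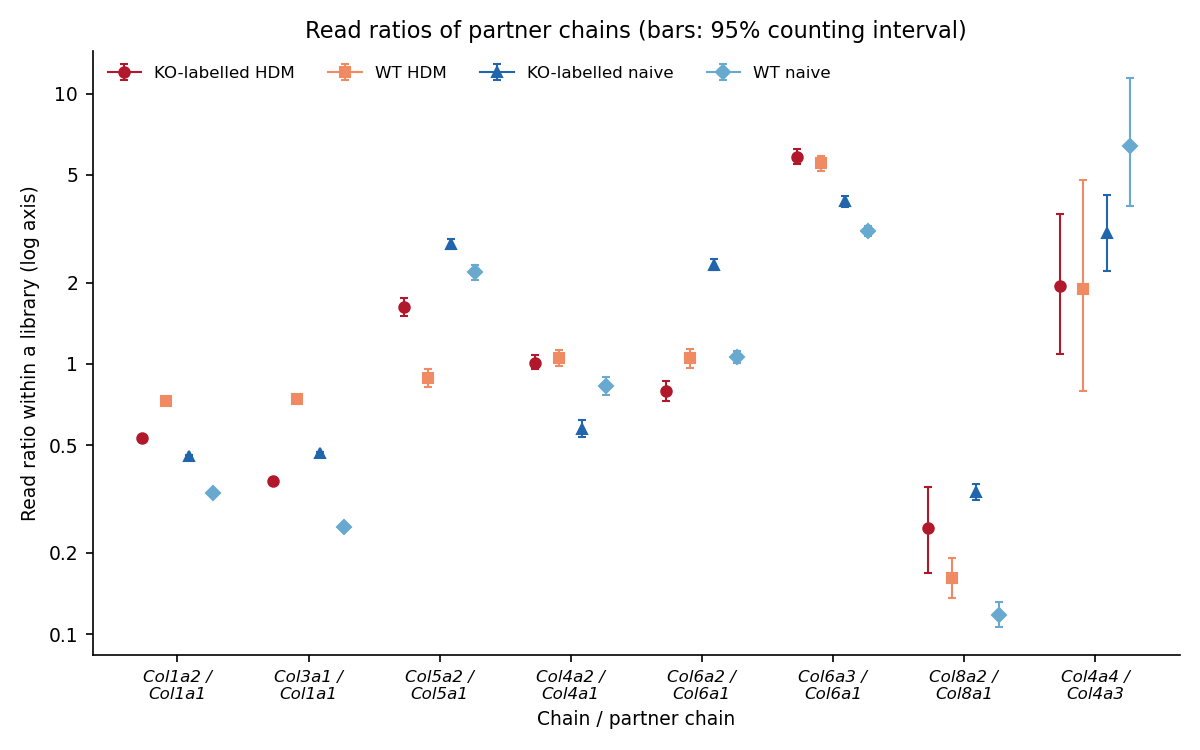
Points give the reads of a chain divided by the reads of its partner in each library, on a log axis, with 95% counting intervals as bars; 8 of the 12 pairs examined are drawn, those with reads of both chains in every library. Col3a1 per Col1a1 lies between 0.250 in WT naive and 0.745 in WT HDM, and Col4a2 per Col4a1 lies near 1 in both HDM libraries. Col3a1 and Col1a1 share fibrils and not a trimer.

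The genes that help to make fibrils differed by step. Of 17 measured genes for collagen synthesis in the endoplasmic reticulum, 6 were lower and 0 higher with HDM in KO-labelled skin (median -0.58), and 3 were lower and 1 higher in WT skin (-0.27). Over all measured genes 18.2% were lower and 21.7% higher with HDM in KO-labelled skin, and 12.7% and 14.5% in WT skin. Creb3l1, a transcription factor that drives type I collagen secretion in bone, had 215 reads in KO-labelled HDM and 164 in WT HDM, against 1232 in KO-labelled naive and 621 in WT naive. It was 3.71-fold lower with HDM in WT skin (3.12 to 4.43). P4hb, the protein disulfide isomerase subunit of prolyl 4-hydroxylase, was 2.04-fold higher with HDM in WT skin (1.94 to 2.14). Colgalt2, which adds galactose to hydroxylysine, was 7.81-fold lower with HDM in KO-labelled skin (5.09 to 12.5), and lower in WT skin too (44 reads against 123). In naive skin 4 of the 17 were higher and 0 lower in the KO-labelled library (13.6% and 17.1% of all genes). P4ha2, a catalytic subunit of that enzyme, was 4.20-fold higher there (3.19 to 5.62). Under HDM, P4ha1 was 2.35-fold higher in KO-labelled than in WT skin (1.78 to 3.14), 1 of 17 higher, and Colgalt2 2.10-fold lower (1.25 to 3.62), 1 of 17 lower. Of all genes 3.06% were higher and 4.66% lower in this comparison.

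Procollagen processing and cross-linking genes had medians of -1.44 with HDM in KO-labelled skin, with 7 of 10 lower and 0 higher, and -1.49 in WT skin, with 6 lower and 1 higher. The shares of all genes were 18.2% lower and 21.7% higher in KO-labelled skin, and 12.7% and 14.5% in WT skin. The lysyl oxidase relative Loxl4 had 18 reads in KO-labelled HDM and 82 in WT HDM, against 702 in KO-labelled naive and 907 in WT naive. It was 38.9-fold lower with HDM in KO-labelled skin (24.4 to 66.0) and 10.8-fold in WT skin (8.64 to 13.8). Loxl1, which is needed for elastic fibres, was 2.05-fold higher with HDM in WT skin (1.78 to 2.37). Bmp1, the protease that removes the C-propeptide of fibrillar collagens, was 2.26-fold higher in KO-labelled than in WT naive skin (2.09 to 2.45). Adamts14, which removes the N-propeptide, was 2.65-fold lower there (2.11 to 3.35).

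Proteoglycans and glycoproteins bound to fibrils had 12 of 14 lower and 0 higher with HDM in KO-labelled skin (median -2.04), and 5 lower and 0 higher in WT skin (-0.89). Among all genes 18.2% were lower and 21.7% higher with HDM in KO-labelled skin, against 12.7% and 14.5% in WT skin. Fmod (fibromodulin) was 47.4-fold lower with HDM in KO-labelled skin (36.8 to 62.1) and 6.26-fold in WT skin (5.54 to 7.10). Periostin (Postn) was 4.40-fold higher in KO-labelled than in WT naive skin (4.09 to 4.73). Under HDM, Thbs2 was 2.02-fold higher (1.81 to 2.26) and osteomodulin (Omd) 5.85-fold lower (4.60 to 7.54) in KO-labelled than in WT skin. Fibroblast markers had a median of -0.78 with HDM in KO-labelled skin (5 of 10 lower, 0 higher) and of -0.01 in WT skin (2 lower, 2 higher). Dcn, Lum and Dpt stand in both of these lists. In WT skin the fibroblast receptor gene Pdgfra was 2.20-fold higher with HDM (1.95 to 2.50), while Thy1 was 2.66-fold lower (2.52 to 2.81).

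Collagen receptors and basement membrane partners had medians from -0.39 to -0.08 with HDM. Of 6 measured receptors, 2 were lower with HDM in each genotype, and 1 was higher in KO-labelled skin (medians -0.39 in KO-labelled and -0.38 in WT skin). Itga10, an integrin chain of chondrocytes, was 9.44-fold lower with HDM in KO-labelled skin (5.53 to 17.3), and the collagen uptake receptor Mrc2 5.48-fold lower in WT skin (4.43 to 6.82). Both were lower in the other genotype too, Itga10 with 41 reads in WT HDM against 194 in WT naive. Mrc2 had 233 in KO-labelled HDM against 1256 in KO-labelled naive. Of 14 laminins, nidogens and other partners, 3 were higher and 3 lower with HDM in KO-labelled skin (median -0.08), and 3 higher and 4 lower in WT skin (-0.22). Receptors and partners alike can be set against the rate over all measured genes with HDM. For KO-labelled skin that rate was 21.7% for higher calls and 18.2% for lower calls. For WT skin it was 14.5% and 12.7%. Lama3 and Lamb3 encode laminin chains of the epidermal basement membrane. Lama3 was 6.39-fold higher with HDM in KO-labelled skin (5.01 to 8.25), from 484 reads against 76. In WT skin Lama3 went the other way and was lower, with 132 reads in WT HDM against 301 in WT naive. Lamb3 was 3.87-fold lower with HDM in WT skin (3.54 to 4.23). In KO-labelled skin Lamb3 had the same direction, short of 2-fold, with log2 values of 10.35 with HDM and 11.27 naive.

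**Figure D5:**
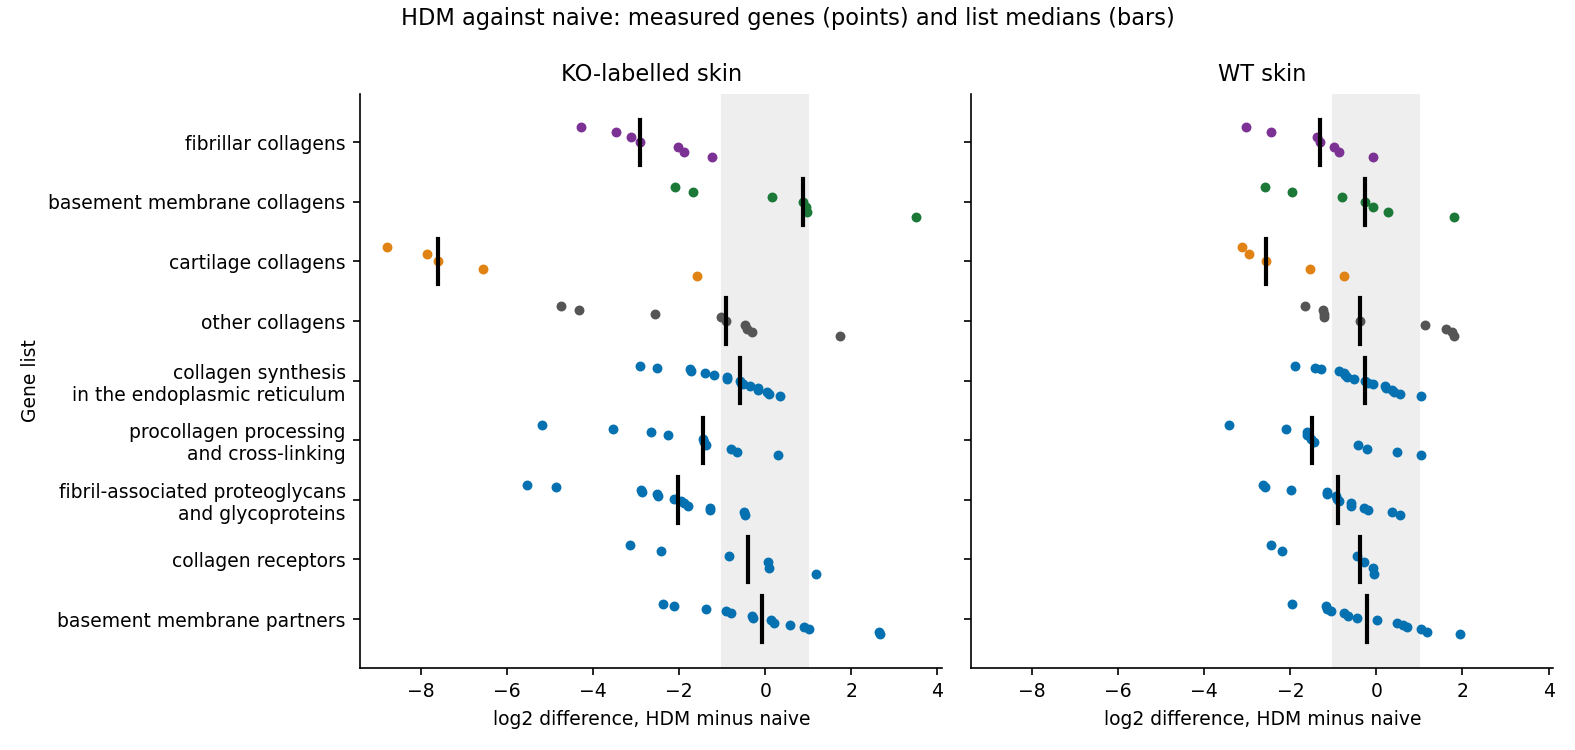
Each point is 1 measured gene, placed by its log2 difference of HDM minus naive in KO-labelled skin (left) and WT skin (right), with the list median as a bar and the span under 2-fold in grey. Fibrillar collagens have medians of -2.91 and -1.32 and fibril-bound proteoglycans and glycoproteins -2.04 and -0.89, while basement membrane collagens lie at 0.88 and -0.27.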

How the data were processed

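Skin RNA of 4 mouse groups, 1 library each, was sequenced from 500 ng of total RNA with a QuantSeq 3′ kit, per the labels' protocols. The authors deposited a log2 value per gene symbol for each library. The submitters' processing notes name Bowtie2, bedtools and the mm10 build; for their roles, the annotation and the normalization the sources used here give nothing. The deposited log2 values are log2(x + 1) of scaled reads, as read from the values: x falls on steps of 0.939 (KO HDM), 1.078 (WT HDM), 0.936 (KO naive) and 1.056 (WT naive). Dividing by the step gave whole reads within 0.1 for 99.1%, 98.2%, 96.2% and 98.9% of genes of up to 200 reads; larger numbers are approximate. Symbols on several lines (35 on 79 lines) were left out. Each fold is a ratio of scaled reads with an exact 95% Clopper-Pearson interval conditional on the summed reads. Reads without molecular identifiers are not independent molecules, so intervals and limits cover counting error only. A count of 0 was taken as up to 3 reads per library. Without replicates no test was run. The steps and intervals were tested on simulated data.

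Genes below the filter were named by reads. From other lists, the gene with the largest difference in each direction past 2-fold in each comparison could be named, except a gene not reported here, and levels of Acan, Cytl1, Sox9 and Krt14 were added after their values were seen. The members and lists were chosen with earlier results of these data known. Motifs were searched in RefSeq promoter windows; stretches overlapping an exon were not printed, save the 27 bases at Col4a1 and Col4a2. Gene positions are GENCODE M21 (GRCm38). Protein features were not analysed here. Alternatives were other filters, scalings, pseudocounts and size rules. Intervals came from scipy 1.17.1, tables from pandas 2.3.3 and numpy 2.4.6, and plots from matplotlib 3.10.9 under Python 3.11.15.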

Additional observations from a re-analysis of the deposited data

Results flagged for a closer look

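Col13a1, a transmembrane collagen gene below the expression filter, differed in opposite directions with HDM in the 2 genotypes. It had 21 reads in KO-labelled HDM, 49 in WT HDM, 91 in KO-labelled naive and 1 in WT naive skin. With HDM it was 4.32-fold lower in KO-labelled skin (2.66 to 7.31) and 50.0-fold higher in WT skin (8.57 to 2016), the wide interval coming from the single read in WT naive. The log2 difference of HDM minus naive was thus -2.06 in KO-labelled and 4.69 in WT skin, and the first minus the second was -6.75. This difference was not tested. No other of the 44 collagen genes passed 2-fold in opposite directions.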

How the results depend on the processing

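Counts of collagen genes past 2-fold stayed within 1.5 times under scaling by recovered read totals, with or without the top 100 genes, with the median of all genes set to 0, with a pseudocount of 8 and with a filter at a mean log2 value of 7. Col5a3 passed 2-fold in WT skin with HDM under 2 of these (-1.02, against -0.99). Without a filter, HDM against naive gave 6 higher in KO-labelled skin and 8 higher in WT skin, against 2 and 5 with it. KO-labelled against WT then gave 5 higher and 15 lower under HDM (0 and 8 with the filter) and 11 higher and 9 lower in naive skin (6 and 2). At 1.5-fold, 5 were higher with HDM in KO-labelled skin, and 3 were higher in KO-labelled than in WT skin under HDM. At 4-fold, 1 was higher with HDM in KO-labelled skin, 0 higher and 6 lower in WT skin, and 0 higher and 0 lower between genotypes in naive skin. Of reads outside the top 100 genes, collagens took 0.747% in KO-labelled HDM, 0.872% in WT HDM, 4.98% in KO-labelled naive and 2.62% in WT naive, so the order with HDM was the same. Moving Col7a1 and Col17a1 to the other collagens, or Col2a1, Col11a1 and Col11a2 to the fibrillar ones, turned the sign of 1 group median, that of the cartilage collagens between genotypes in naive skin (0.09, against -0.07). No paired analysis was possible because each group held 1 library, and for the same reason no library could be left out of a comparison. Depth limits the genes of few reads: for Col13a1 the interval in WT skin ran over 8.57-fold to 2016-fold.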
